A study of Homo sapiens with 8 samples.

Results

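The NRF2 antioxidant genes are 10 genes named for their place in the cell's defence against oxidants and reactive chemicals: the transcription factor gene NFE2L2, which encodes NRF2, and NQO1, HMOX1, GCLC, GCLM, SLC7A11, TXNRD1, SRXN1, AKR1B10 and AKR1C1. They were chosen by name, from a list made with earlier results of these data known. They are 10 of the 18689 genes with a protein-coding RefSeq entry in the files, and all 10 were among the 10501 genes tested, which are those whose average over all 8 libraries reached 1 FPKM. An FPKM value counts the fragments of a transcript after division by its length and by the fragments mapped in the library. It is a level per length, so levels of different genes can be set side by side.

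NRF2 binds DNA with a small MAF protein at short sequences called antioxidant response elements, and it raises genes that make glutathione, regenerate thioredoxin, reduce quinones and carbonyls and break down heme. In unstressed cells the adaptor KEAP1 hands NRF2 to a CUL3 ubiquitin ligase for destruction, so its activity is set largely at the level of the protein, which was not measured here. In kidney cancers the pathway is known both from loss or mutation of its regulators and from fumarate, which modifies KEAP1 in tumors lacking fumarate hydratase.

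RNA-seq was done on 8 libraries from the kidney cancer cell lines A498 and 786-O, 4 of each, after knockdown of SLINKY, a long intergenic noncoding RNA. In each line 2 libraries had received a non-targeting control siRNA (NTC), 1 library siRNA #1 against SLINKY and 1 library siRNA #2, all at 50 nM for 16 hrs with Lipofectamine. The labels describe each siRNA as a pool, whereas the study's methods describe separate SLINKY siRNAs and give a later time, counted from transfection, for the isolation of RNA. A498 was grown in DMEM and 786-O in RPMI-1640, both with 10% fetal bovine serum, so the cell line and its medium cannot be told apart. Each line is a single line and nothing in the labels says that its libraries came from separate cultures, so p-values measure the spread between these libraries only.

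The libraries held from 25100000 to 64700000 reads, as recovered from the confidence intervals in the files. SLINKY was 80.3% to 89.3% lower than the mean of the NTC libraries in the A498 siRNA libraries, and 96.0% (siRNA #1) and 58.2% (siRNA #2) lower in the 786-O libraries. With NTC it was at 14.6 and 16.1 FPKM in A498 but at 1.45 and 1.39 FPKM in 786-O. The 786-O percentages thus rest on low levels, 0.0569 FPKM after siRNA #1 and 0.594 FPKM after siRNA #2. PAX8, which marks kidney epithelium and its tumors, was at 39.2 to 48.1 FPKM in all 8 libraries, and VIM, KRT8 and KRT18 were high. CA9, the carbonic anhydrase that is typical of clear cell tumors, was at most 0.559 FPKM in A498 and at most 0.0229 FPKM in 786-O. Of 13 markers of leukocytes, endothelium and fibroblasts, 11 were at most 0.494 FPKM in every library, with the leukocyte genes PTPRC and CD3E at 0. The other two were CD68, a lysosomal gene also used as a macrophage marker, at 138 to 151 FPKM in A498 against 1.70 to 5.20 FPKM in 786-O, and the collagen gene COL1A1, at 2.87 to 3.42 FPKM against 0.186 to 0.273 FPKM. The sum of the 13 was 141 to 155 FPKM in A498 and 2.24 to 5.68 FPKM in 786-O, and its part in the differences between the lines was not tested. In such bulk samples, fewer cells that express a gene and less RNA per cell cannot be told apart.

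All 10 NRF2 antioxidant genes were expressed at higher levels in A498 than in 786-O, in every library, from 1.39-fold for GCLC to 292-fold for AKR1C1. Of all 10501 tested genes, 37.7% were likewise higher in every A498 library than in every 786-O library. At an adjusted p of 0.05 in limma, 41% of tested genes were higher in A498 and 42.8% were lower. The aldo-keto reductases AKR1C1 and AKR1B10, which reduce steroids, retinal and reactive aldehydes, stood far from the other 8 genes. Neither SLINKY siRNA changed any of the 10 genes past that threshold, which 0.343% (siRNA #1) and 0.0286% (siRNA #2) of all tested genes passed.

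The sequence that NRF2 and its MAF partner are known to bind has the core TGACNNNGC, where N is any base, and the 1000 bases before the annotated start were searched for it on both strands to show where the letters occur in these genes. The start was that of the RefSeq entry with the highest level, and 7 of the 10 genes had a window. The core was present in 4 of the 7, with 5 matches, against 33.6% of the 8688 tested genes with a window and 40.8% of 71 other genes of the pathway. The narrower form TGACTCAGC, which also contains the letters of the AP-1 site TGACTCA, was present in 1 of the 7 genes, NQO1, and in 1.31% of the tested genes. Each match is written in its own direction (GRCh37), with the core in capitals and the flanking bases in lower case.
NFE2L2, chr2:178128791-178128819, + strand, 183 bases before the start: agcggccccgTGACTAGGCacatttttgc
NFE2L2, chr2:178128651-178128679, + strand, 43 bases before the start: gagagatggaTGACTTCGCaaagccgcgc
NQO1, chr16:69760900-69760928, − strand, 376 bases before the start: gcagtcacagTGACTCAGCagaatctgag
GCLC, chr6:53410751-53410779, + strand, 833 bases before the start: aaatatgtgtTGACAGAGCaatgacctgt
TXNRD1, chr12:104609448-104609476, + strand, 90 bases before the start: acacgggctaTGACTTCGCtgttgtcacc

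By the GENCODE annotation, both NFE2L2 matches lay in the untranslated first exon of another transcript of NFE2L2 itself, the NQO1 match in an exon of the divergent noncoding gene NQO1-DT, the GCLC match in an intron of longer GCLC transcripts, and the TXNRD1 match in no annotated gene. Windows of GCLM, SRXN1 and AKR1C1 held no match of these letters. HMOX1, SLC7A11 and AKR1B10 had no window. The TXNRD1 start was that of NM_001093771, which held 40.3% of the gene's FPKM over all libraries. The other TXNRD1 entries start at chr12:104680460, and the bases before that start were not searched. A match is a stretch of letters and was not tested for binding.

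NFE2L2 (chr2:178095031-178129859 in hg19) was at 45.5 and 50.5 FPKM in A498 with NTC, 49.6 FPKM after siRNA #1 and 49.9 FPKM after siRNA #2. The corresponding 786-O levels were 33.0 and 30.7 FPKM (NTC), 32.4 FPKM (siRNA #1) and 31.6 FPKM (siRNA #2). The lowest A498 library lay above the highest 786-O library, and within each line the siRNA libraries were close to the NTC libraries. The mean was 48.9 ± 2.26 FPKM in A498 and 31.9 ± 0.990 FPKM in 786-O (SD, n = 4 each). The log2 difference was 0.61 (SE 0.046, limma adjusted p = 1.53e-06), a 1.53-fold difference. NFE2L2 RNA came from 3 RefSeq entries, of which the estimates gave NM_001145412 44.2% to 69.6% in A498 and 45.0% to 82.7% in 786-O. The entry with the longer first part, NM_006164, had at most 9.98% in A498 and at most 9.54% in 786-O. These shares differed as much between libraries of one line as between the lines.

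NQO1 (chr16:69743304-69760533), which reduces quinones by a pair of electrons so that they do not cycle with oxygen, was at 551 and 593 FPKM in A498 with NTC, 587 FPKM after siRNA #1 and 553 FPKM after siRNA #2. For 786-O the levels were 178 and 174 FPKM with NTC, 188 FPKM after siRNA #1 and 164 FPKM after siRNA #2. The lines did not overlap, and every A498 library was at least 2.94 times every 786-O library. Means were 571 ± 21.9 FPKM and 176 ± 9.82 FPKM (SD, n = 4 each), a log2 difference of 1.70 (SE 0.036, limma adjusted p = 3.45e-10). One RefSeq entry, NM_000903, held all but a trace of its level in every library.

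HMOX1 (chr22:35777060-35790207), heme oxygenase, which opens the heme ring to biliverdin, iron and carbon monoxide, was at 686 and 659 FPKM in A498 with NTC, 624 FPKM after siRNA #1 and 564 FPKM after siRNA #2. The 786-O levels were 363 and 334 FPKM with NTC, 377 FPKM under siRNA #1 and 289 FPKM under siRNA #2. It was the most abundant of the 10 genes in 786-O and had the largest SD of the 10 in both lines, with siRNA #2 lowest in each. Means were 633 ± 52.6 FPKM in A498 and 341 ± 39.1 FPKM in 786-O (SD, n = 4 each), a log2 difference of 0.90 (SE 0.049, limma adjusted p = 1.83e-07).

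Glutathione synthesis draws on cystine that is taken up by the exchanger SLC7A11 and reduced to cysteine. Cysteine is joined to glutamate by an enzyme of a catalytic subunit, GCLC, and a modifier subunit, GCLM. SLC7A11 (chr4:139085248-139163503) was at 11.8 and 12.7 FPKM in A498 with NTC, 12.1 FPKM after siRNA #1 and 13.8 FPKM after siRNA #2, and in 786-O at 2.98 and 2.57 FPKM with NTC, 3.02 FPKM with siRNA #1 and 2.36 FPKM with siRNA #2. All A498 libraries were at least 3.89 times all 786-O libraries. With 12.6 ± 0.887 FPKM against 2.73 ± 0.320 FPKM (SD, n = 4 each), SLC7A11 had a log2 difference of 2.17 (SE 0.089, limma adjusted p = 2.64e-08), which only the aldo-keto reductases exceeded.

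GCLM (chr1:94352590-94375012) was at 29.9 and 34.9 FPKM in A498 with NTC, 35.3 FPKM after siRNA #1 and 36.0 FPKM after siRNA #2, and in 786-O at 20.4 and 19.2 FPKM with NTC, 19.7 FPKM with siRNA #1 and 20.6 FPKM with siRNA #2. The first A498 NTC library was the lowest of its line by a clear step, yet above all of 786-O. The log2 difference of GCLM between the lines was 0.76 (SE 0.057, limma adjusted p = 1.54e-06). GCLC (chr6:53362140-53409927) was at 6.43 and 7.22 FPKM in A498 with NTC, 7.40 FPKM after siRNA #1 and 7.17 FPKM after siRNA #2, and in 786-O at 5.21 and 4.89 FPKM with NTC, 5.40 FPKM with siRNA #1 and 4.76 FPKM with siRNA #2. The lines came closest here, since the lowest A498 library was 1.19 times the highest 786-O library. The log2 difference of GCLC was 0.47 (SE 0.058, limma adjusted p = 5.44e-05), the smallest of the 10. The modifier subunit was thus measured at a higher level per length than the catalytic subunit in both lines, at 29.9 to 36.0 against 6.43 to 7.40 FPKM in A498 and 19.2 to 20.6 against 4.76 to 5.40 FPKM in 786-O.

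TXNRD1 (chr12:104609557-104744085), the reductase that returns thioredoxin to its active form with electrons from NADPH, was at 186 and 208 FPKM in A498 with NTC, 205 FPKM after siRNA #1 and 201 FPKM after siRNA #2. The corresponding 786-O levels were 96.9 and 90.8 FPKM (NTC), 103 FPKM (siRNA #1) and 97.9 FPKM (siRNA #2). The lines did not overlap, and the log2 difference was 1.04 (SE 0.045, limma adjusted p = 3.36e-08). The study placed TXNRD1 on its list of transcripts up-regulated with both siRNAs in both lines. That list was chosen on these same libraries, so the values of TXNRD1 are not independent of that choice. Its summed log2 differences from NTC were 0.06 and 0.03 in A498 and 0.13 and 0.06 in 786-O (siRNA #1 and #2). None of them was past the study's fold threshold.

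SRXN1 (chr20:627268-634014), sulfiredoxin, which repairs overoxidized peroxiredoxins, was at 105 and 109 FPKM in A498 with NTC, 113 FPKM after siRNA #1 and 99.8 FPKM after siRNA #2. For 786-O the levels were 44.4 and 42.3 FPKM with NTC, 47.6 FPKM after siRNA #1 and 42.9 FPKM after siRNA #2. In both lines siRNA #1 gave the highest library. The log2 difference between the lines was 1.27 (SE 0.037, limma adjusted p = 2.68e-09). Of the stretches of 36 bases, the read length, in the coding part of SRXN1, 44.7% also occurred in a gene annotated over it, and 0.798% elsewhere.

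AKR1B10 (chr7:134212344-134226166), a reductase of retinal and of lipid aldehydes, was at 707 and 775 FPKM in A498 with NTC, 788 FPKM after siRNA #1 and 708 FPKM after siRNA #2. The 786-O levels were 12.2 and 11.5 FPKM with NTC, 14.5 FPKM under siRNA #1 and 11.2 FPKM under siRNA #2. AKR1B10 was the most abundant of the 10 genes in A498 and took place 7 in 786-O. The log2 difference was 5.91 (SE 0.050, limma adjusted p = 6.36e-12), a 60.1-fold difference with a 95% interval of 55.6 to 65.1, and it was rank 76 of the 10501 genes when ordered from the highest in A498.

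AKR1C1 (chr10:5005454-5020158), a hydroxysteroid dehydrogenase that inactivates progesterone, was at 521 and 522 FPKM in A498 with NTC, 552 FPKM after siRNA #1 and 475 FPKM after siRNA #2. The corresponding 786-O levels were 1.80 and 1.63 FPKM (NTC), 1.81 FPKM (siRNA #1) and 1.46 FPKM (siRNA #2). It took place 4 of 10 by level in A498 and the last place in 786-O. The log2 difference of 8.19 (SE 0.042, limma adjusted p = 8.15e-13) is a 292-fold difference with a 95% interval of 273 to 312 (the ratio of mean FPKM, with no pseudocount, was 309), and it was rank 6 of the 10501 genes when ordered from the highest in A498. By the deposited confidence intervals AKR1C1 rested on 14051 to 32536 reads in the A498 libraries and on 75 to 124 reads in the 786-O libraries. Its measured level in 786-O was thus low. These are reads as the estimates assigned them, and 66.6% of the 36-base stretches of its coding part also occur in another gene. Whether AKR1C1 itself was above zero in 786-O was not tested.

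**Figure D1:**
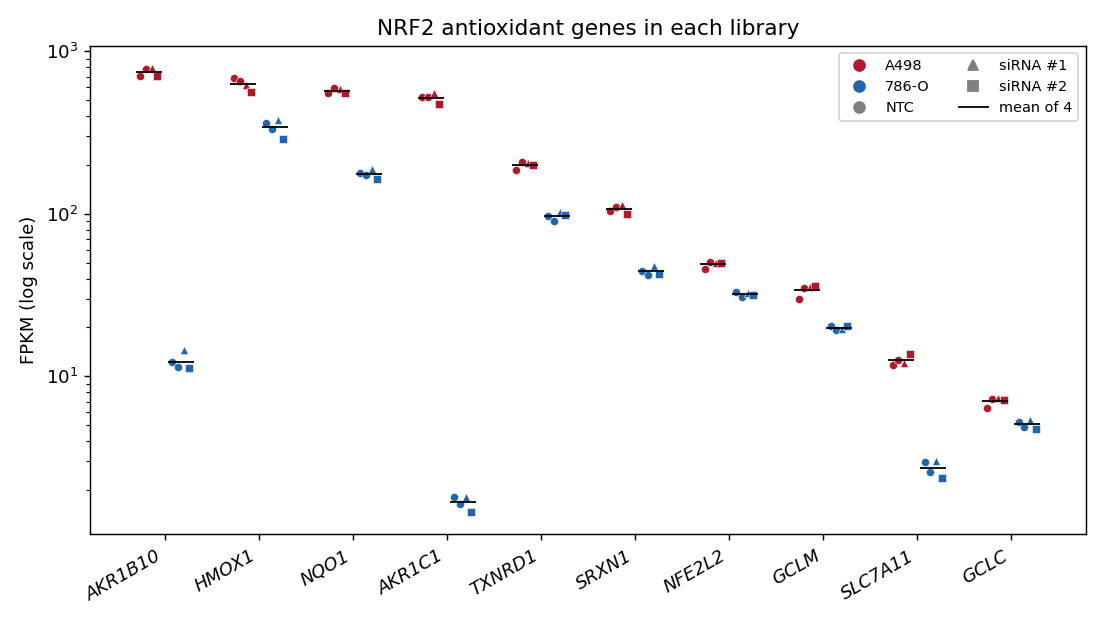
FPKM of each of the 10 genes (log axis) in each of the 8 libraries, ordered by the A498 mean, with A498 in red and 786-O in blue, symbols for NTC and both siRNAs, and a black line at the mean of the 4 libraries of a line. The libraries of each line lie close together and those of 786-O lie below those of A498 in every gene, with the widest gap for AKR1C1 (475 to 552 FPKM against 1.46 to 1.81 FPKM).

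Reads of 36 bases cannot always be given to 1 member of a gene family. In the coding part of AKR1C1, 66.6% of stretches of that length also occurred in another gene, and 62.9% occurred in AKR1C2. For AKR1B10 the share was 41.5%, with 29.1% in AKR1B15, and for NFE2L2, NQO1, HMOX1, GCLC, GCLM, SLC7A11 and TXNRD1 it was 0%. The levels of AKR1C1 and AKR1B10 as single genes are therefore uncertain. The entries of such a pair differ in length, so a read moved between them also changes their summed FPKM. The sum of AKR1C1 and AKR1C2 was 592 to 691 FPKM in A498 and 1.86 to 2.25 FPKM in 786-O. The sum of AKR1B10 and AKR1B15 was 799 to 895 FPKM in A498 and 12.7 to 16.2 FPKM in 786-O. Both sums thus separated the lines about as widely as the single genes did, with a ratio of means of 306 and 60.0.

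The close relatives did not all differ to the same extent. AKR1C2, which inactivates dihydrotestosterone, was at 117 to 139 FPKM in A498 and 0.393 to 0.446 FPKM in 786-O, and AKR1C4, a liver enzyme of bile acid synthesis, at 36.5 to 42.4 FPKM and 0.344 to 0.525 FPKM. AKR1C3, which makes testosterone and prostaglandin F, was at 334 to 394 FPKM in A498 and 5.58 to 5.99 FPKM in 786-O. The level of AKR1C1 was 1.40 to 1.45 times that of AKR1C3 in A498 but 0.262 to 0.314 times it in 786-O. The measured order of these neighbours on chromosome 10 thus turned over between the lines. Of the 36-base stretches, 66.7% in AKR1C2, 29.2% in AKR1C3 and 24.5% in AKR1C4 also occurred in another gene. How the division of such reads bears on these levels was not tested. AKR1C1 was 3.97 to 4.11 times AKR1C2 in A498 and 3.66 to 4.13 times in 786-O. AKR1B1, aldose reductase of the polyol pathway, was the most abundant of these relatives in both lines, at 1933 to 2086 FPKM and 1032 to 1196 FPKM, with a log2 difference of 0.86 (SE 0.043, limma adjusted p = 9.35e-08).

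Between the lines, 10 of the 10 genes passed an adjusted p of 0.05 with A498 higher, where 41% of all tested genes did so and 42.8% were lower in A498. The ranges of the 4 libraries did not overlap, with A498 above, in 10 of 10 genes and in 37.7% of all tested genes. The lines therefore differed in most genes, in one direction or the other. Their median log2 difference was 1.15, against -0.02 over all tested genes. The middle 50% of all genes lay between -0.47 and 0.54, so that GCLC alone fell inside it. AKR1C1 and AKR1B10 alone lay above 2.79, the level that 5% of genes exceeded.

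**Figure D2:**
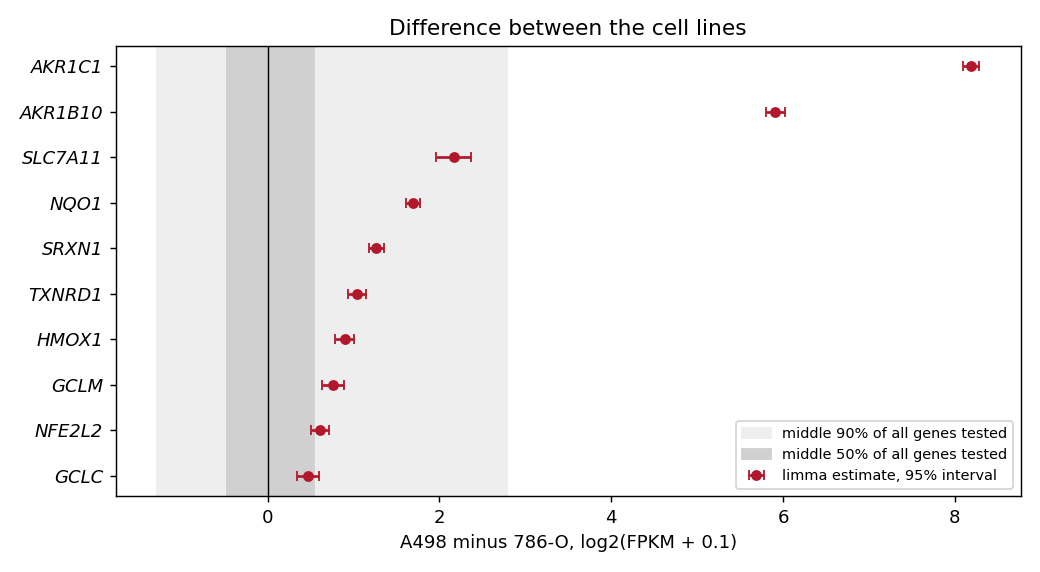
Difference in log2(FPKM + 0.1) between A498 and 786-O for the 10 genes, as limma estimates with 95% intervals, over bands that hold the middle 50% and the middle 90% of the 10501 tested genes. All 10 intervals lie above 0, from GCLC at 0.47 to AKR1C1 at 8.19.

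The order of the genes by level was partly kept between the lines. In A498 it ran AKR1B10, HMOX1, NQO1, AKR1C1, TXNRD1, SRXN1, NFE2L2, GCLM, SLC7A11 and GCLC, where the ranges of HMOX1 and NQO1 and those of NQO1 and AKR1C1 overlapped and those of all other neighbours did not. In 786-O it ran HMOX1, NQO1, TXNRD1, SRXN1, NFE2L2, GCLM, AKR1B10, GCLC, SLC7A11 and AKR1C1, with no overlap between neighbours. Without the aldo-keto reductases, the orders differed only in that SLC7A11 and GCLC changed places. HMOX1 was among the most abundant transcripts of both lines, at rank 115 of the 18689 genes in A498 and 248 in 786-O, whereas AKR1C1 went from rank 148 to rank 9135.

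A list of 87 other genes of the pathway, made by role, placed these differences in their setting. Of the 80 that were tested, 58 were higher in A498, 16 were lower and 6 did not pass the threshold, with a median log2 difference of 0.85. Among all tested genes 41% were higher in A498 and 42.8% lower, and the counts by role below are to be read beside these shares. By role the counts of genes higher in A498, lower in A498 and not past the threshold were uneven. For detoxification and export they were 20, 3 and 1 of 24 genes, for glutathione 13, 2 and 3 of 18, and for enzymes that supply NADPH 6, 0 and 0 of 6. Heme and iron gave 5, 1 and 1 of 7, regulators 7, 5 and 0 of 12, and thioredoxin and peroxide enzymes 7, 5 and 1 of 13.

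Among the regulators, KEAP1, the inhibitor of NRF2, had a log2 difference of 0.34 (50.5 to 56.9 FPKM in A498, 40.9 to 43.9 FPKM in 786-O). BACH1, a repressor that competes for the same DNA elements, had 1.24 (3.96 to 4.55 against 1.47 to 1.96 FPKM) and NFE2L1, a relative of NFE2L2, 1.09 (78.8 to 82.8 against 36.4 to 38.7 FPKM). PGAM5, a mitochondrial phosphatase that binds KEAP1, lay on the other side at -1.43 (11.9 to 13.6 against 33.9 to 35.3 FPKM). CUL3 and RBX1, which form the ligase that KEAP1 serves, were also lower in A498, with log2 differences of -0.40 and -0.59.

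In the glutathione group the largest difference was in a gene lower in A498, as 2 of the 18 were. GSTP1, the glutathione transferase of the pi class, was at 0.299 to 0.737 FPKM in A498 and at 575 to 624 FPKM in 786-O, a log2 difference of -9.95 (SE 0.19, limma adjusted p = 2.08e-10), the largest in size of all 10501 genes. GSTM1, a transferase of the mu class, was at 23.5 to 24.1 FPKM in A498 and 0.557 to 0.766 FPKM in 786-O, a log2 difference of 4.95, and GPX3, a secreted peroxidase made in kidney tubules, at 163 to 180 FPKM and 6.10 to 6.99 FPKM, a log2 difference of 4.70. Members of a transferase class share long stretches of sequence, and sharing of reads among them was not measured.

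In the smaller groups, catalase (CAT) had a log2 difference of 1.90, mitochondrial superoxide dismutase (SOD2) 1.03, and PRDX4, a peroxiredoxin of the endoplasmic reticulum, -1.13. Biliverdin reductase B (BLVRB) had 2.26, and the ferritin chains FTH1 and FTL, which store iron, had 0.87 and 0.85. Of the NADPH enzymes, IDH1 had 1.30 and TALDO1 0.95. All of these passed the threshold.

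**Figure D3:**
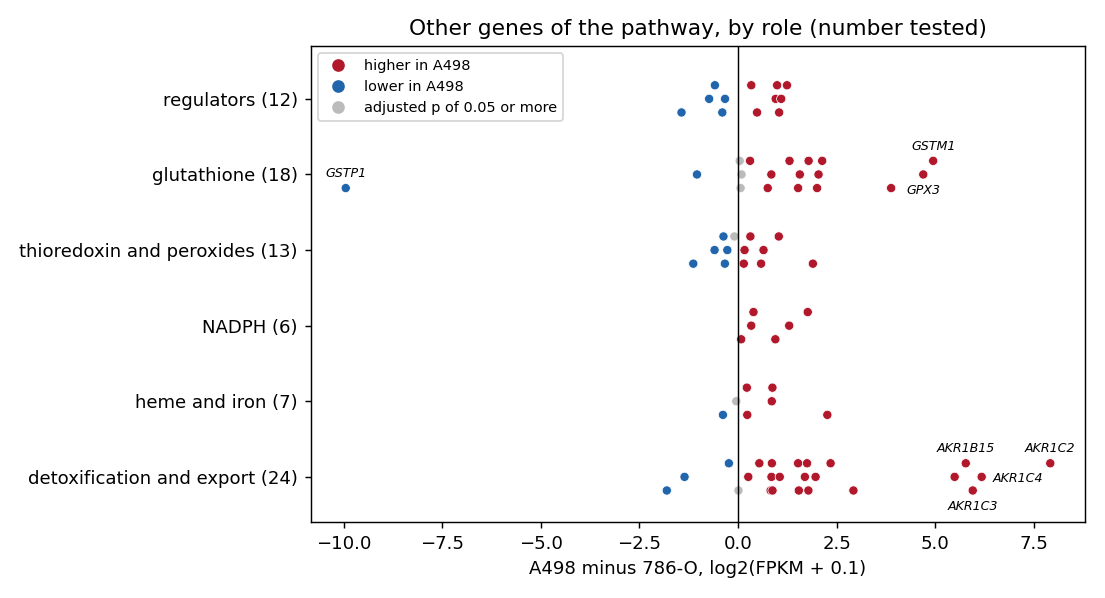
Difference in log2(FPKM + 0.1) between A498 and 786-O for the 80 tested genes of the wider pathway, 1 point each, by role, coloured by the limma call at an adjusted p of 0.05. Most points lie to the right (58 higher, 16 lower, where 41% and 42.8% of all tested genes were). The AKR1C relatives and AKR1B15 reach 5.77 to 7.91, and GSTP1 lies alone at -9.95.

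The SLINKY knockdown was compared with NTC to ask whether these genes follow the noncoding RNA. None of the 10 passed the threshold for siRNA #1, for siRNA #2 or for the mean of both, and none for a difference of the effect between the lines. Of all tested genes 0.343% (36 genes), 0.0286% (3), 0.0571% (6) and 0.00952% (1) did. At an unadjusted p under 0.05 there were 2 of the 10 genes for siRNA #1 and 2 for siRNA #2, where 10.6% and 13.5% of all genes were. The siRNAs share the NTC libraries, so their values are given side by side and not combined into a count of agreement.

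HMOX1 had the largest difference of the 10, with a log2 value of -0.26 for siRNA #2 (SE 0.060, limma adjusted p = 0.267) and 0.0039 for siRNA #1 (limma adjusted p = 0.989). Its siRNA #2 library was the lowest of its line in both A498 (0.839 times the NTC mean) and 786-O (0.829 times). AKR1C1 had -0.17 for siRNA #2 (SE 0.052, limma adjusted p = 0.303) and 0.08 for siRNA #1 (limma adjusted p = 0.608), and it too was lowest with siRNA #2 in both lines. AKR1B10 had 0.19 for siRNA #1 (SE 0.061, limma adjusted p = 0.337) and -0.07 for siRNA #2 (limma adjusted p = 0.614). SRXN1 had 0.11 for siRNA #1 (SE 0.045, limma adjusted p = 0.447) and -0.06 for siRNA #2 (limma adjusted p = 0.588). The other 6 genes, NFE2L2 included, lay between 0.04 and 0.11 for siRNA #1 and between -0.08 and 0.10 for siRNA #2.

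The 95% intervals bound what these libraries could have held. For NFE2L2 they ran from 0.940 to 1.12-fold for siRNA #1 and from 0.930 to 1.11-fold for siRNA #2. The widest were those of SLC7A11, 0.876 to 1.24-fold and 0.829 to 1.17-fold, and the interval that reached lowest was that of HMOX1 for siRNA #2, 0.758 to 0.918-fold. That interval excluded no change, as did those of AKR1C1 for siRNA #2 (0.817 to 0.962-fold) and, for siRNA #1, of AKR1B10 (1.035 to 1.256-fold) and SRXN1 (1.004 to 1.158-fold). The intervals are not adjusted for the number of genes tested, and none of these differences passed the adjusted threshold. Where an interval held no change, a change inside it was not distinguished from none. The intervals are not detection limits.

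Set directly against each other, siRNA #2 was below siRNA #1 in 9 of the 10 genes, where 51.5% of all genes were, by up to 0.27 on the log2 scale (HMOX1, limma adjusted p = 0.242), and the smallest adjusted p was that of AKR1C1 (-0.25, limma adjusted p = 0.186). None of the 10 passed the threshold, where 0.371% of all genes did, and 5 had an unadjusted p under 0.05, against 9.33% of all genes. This contrast was added after the values had been seen.

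In single libraries, with the entries of a gene summed, none of the 10 genes was further than 0.32 on the log2 scale, the fold threshold of the study, from the mean of its line's NTC libraries, with either siRNA. Of all tested genes, 3.81% were past it in A498 with siRNA #1, 5.49% in A498 with siRNA #2, 5.9% in 786-O with siRNA #1 and 3.92% in 786-O with siRNA #2. The widest single values were AKR1B10 in 786-O with siRNA #1, at 0.29 on the log2 scale, and HMOX1 in 786-O with siRNA #2, at -0.27. The NTC libraries, which received the same siRNA, also differed across the 10 genes: NTC 2 was above NTC 1 in 9 of 10 in A498 (median log2 difference 0.12) and in 0 of 10 in 786-O (median -0.09), where 56.6% and 51.9% of all genes were. The median over the 10 genes of the siRNA libraries, 0.07 and -0.01 in A498 and 0.10 and -0.08 in 786-O for siRNA #1 and #2, was of the size of these differences between control libraries.

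Among single RefSeq entries of the genes the picture was less even. Of the 16 entries with a mean of at least 1 FPKM, 1 was past 0.32 on the log2 scale in the same direction in all 4 single-library comparisons, against 0.827% of all 13541 such entries. That entry was NM_182743 of TXNRD1, at 49.6 and 39.5 FPKM in A498 with NTC, 66.2 FPKM after siRNA #1 and 62.8 FPKM after siRNA #2. In 786-O the same entry was at 20.9 and 13.4 FPKM with NTC, 29.7 FPKM after siRNA #1 and 23.2 FPKM after siRNA #2, so that both siRNA libraries lay above both NTC libraries in each line. Its log2 differences from NTC were 0.57 and 0.49 in A498 and 0.78 and 0.43 in 786-O, while its NTC libraries had log2 differences of -0.33 and -0.63 (NTC 2 minus NTC 1). Another TXNRD1 entry, NM_001093771, had -0.12 and 0.05 in A498 and -0.66 and -0.26 in 786-O, and the summed gene had 0.06 and 0.03 in A498 and 0.13 and 0.06 in 786-O. The estimates divide reads shared by the entries of a gene, and these values were chosen after they had been seen.

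**Figure D4:**
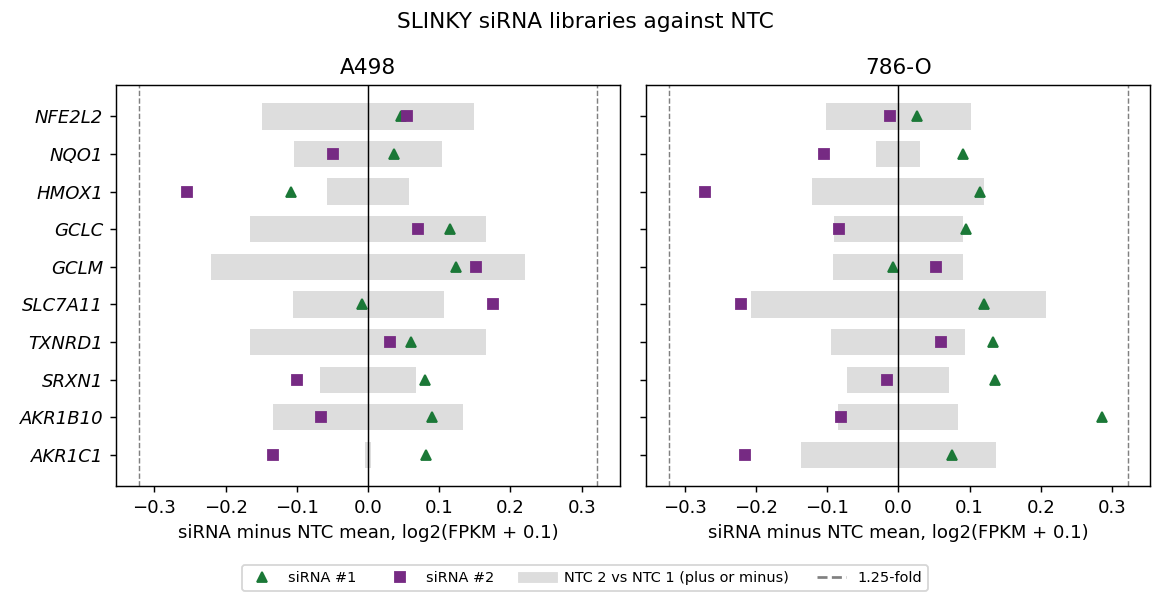
Log2 difference of each siRNA library from the mean of the NTC libraries of its line, for the 10 genes in A498 (left) and 786-O (right), with grey bars as wide as the difference between the NTC libraries to each side of 0 and dashed lines at 0.32, the study's fold threshold, on either side. All points lie inside the dashed lines, from -0.27 to 0.29.

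Of the 80 other genes of the pathway, none passed the threshold for siRNA #1, siRNA #2, both siRNAs or the difference between the lines, and none was past 0.32 on the log2 scale in the same direction in all 4 single-library comparisons, where 0.0762% of all genes were. At an unadjusted p under 0.05 there were 8 of the 80 for siRNA #1 and 9 for siRNA #2, where 10.6% and 13.5% of all genes were. GSTA4, a glutathione transferase, is on the study's list of transcripts up-regulated with both siRNAs in both lines. Its summed log2 differences from NTC were 0.15 and -0.11 in A498 and 1.00 and 0.38 in 786-O (siRNA #1 and #2). It was thus past 0.32 in 786-O only.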

How the data were processed

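RNA from A498 and 786-O cells was sequenced by the authors as single-end reads of 36 bp. Per the submitters' processing notes, TopHat2 2.0.0 and Cufflinks 2.0.2 were used with hg19, and the authors deposited 1 table of FPKM values per library with 75378 RefSeq and noncoding entries. FPKM are not counts, so no count model was used.

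Protein-coding (NM) entries were mapped to current symbols (97.7% of 35951) and their FPKM summed per symbol. Genes with a mean of at least 1 FPKM were tested on log2(FPKM + 0.1), where 0.1 FPKM is a pseudocount that understates changes of low genes, with limma 3.58.1 (R 4.3.3), a variance trend and Benjamini-Hochberg adjustment over all 10501 genes at 0.05. The fit held all 8 libraries, with cell line, siRNA #1 and siRNA #2 as terms; a second fit held cell line, knockdown and their interaction. Single siRNA libraries were set against the NTC mean with no test, at the study's fold threshold (0.32 on the log2 scale). In simulated data on 10501 genes, 109 of 200 genes that differed between the lines by that fold were recovered, as were 61 of 200 changed that much by siRNA #1. False calls were 5 and 0. These rates hold for the simulated spread, which may differ from that of these libraries. No member had an entry with a failed Cufflinks estimate, and 285 genes had one. Depth was recovered from entries of 1 exon, where the upper bound of the Cufflinks interval is set by the read number. The Cufflinks intervals do not cover the spread between libraries. In some genes with several entries they were wider than counting error alone would give. For NM_001145412 of NFE2L2 they implied 2950 reads at 31.7 FPKM in A498 NTC 1 but 2 reads at 21.9 FPKM in A498 siRNA #1. Sequences come from GRCh37, with strands from RefSeq's promoter table and annotation from GENCODE.

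The 10 members and the lists of pathway and marker genes were chosen with earlier results of these data known. The text names the members, the paralogs AKR1C2, AKR1C3, AKR1B1 and AKR1B15, and in each role of the pathway list the 3 genes with the largest difference between the lines among those past the threshold. One gene that this rule names is not reported here. KEAP1, CUL3, RBX1 and the genes in the closing observations were added after their values were seen. GSTA4, which is on the study's list, also falls outside this rule. Alternatives covered pseudocount, filter, scaling, choice of entry, variance trend, left-out libraries and NTC libraries alone.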

Additional observations from a re-analysis of the deposited data

How the results depend on the processing

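Between the lines, all 10 genes stayed higher in A498 and past the threshold in each of the 20 alternatives. The closest was NFE2L2 with only the highest entry per symbol, with a log2 difference of 0.44 (limma adjusted p = 0.0436), where its estimates are split over entries. For the siRNA contrasts none of the 10 passed in any of the 17 alternatives run, with adjusted p from 0.185 for siRNA #2 and from 0.259 for siRNA #1, while the counts over all genes moved widely. For siRNA #1, 36 genes became 57 with a pseudocount of 1 FPKM, 62 with a mean of at least 5 FPKM, 1 without a filter, 2 with the highest entry, 8 without the variance trend and 8 with NM and NR entries, and 3 to 32 when 1 library was left out (3 without A498 NTC 2, 7 without 786-O NTC 2, 6 without the 786-O siRNA #1 library). For siRNA #2, 3 became 0 without a filter, 1 with the highest entry, 1 without the trend and 1 to 11 with 1 library left out (11 without the 786-O siRNA #2 library, 8 without that of A498, 1 without A498 NTC 1, either 786-O NTC library or 786-O siRNA #1). For both siRNAs, 6 became 0 in the same 3 settings and 0 to 15 with 1 library left out (15 without 786-O siRNA #2, 13 without A498 siRNA #1, at most 2 without any other). The difference between the lines gave 1 gene, then 0 with a pseudocount of 1 FPKM or a mean of at least 5 FPKM, 4 without a filter, 16 with NM and NR entries and 1 to 6 with 1 library left out (6 without A498 siRNA #1, 1 without 786-O NTC 1, 2 to 5 without any other). With the siRNAs taken as replicates of 1 knockdown, 0 genes passed in limma (1248 at an unadjusted p under 0.05), 1 with NM and NR entries and 0 to 4 with 1 library left out (4 without 786-O siRNA #2, 0 without any other). Where a group is left with 1 library, that library is assumed to vary like the others.

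Counts past the study's fold threshold in a single library depended on low genes. With a pseudocount of 1 FPKM, no filter, a mean of at least 5 FPKM and the highest entry, in that order, they were 195, 1662, 134 and 775 for A498 siRNA #1 (400 as reported), 299, 2181, 201 and 1102 for A498 siRNA #2 (576), 299, 1617, 249 and 981 for 786-O siRNA #1 (620), and 173, 1204, 135 and 782 for 786-O siRNA #2 (412). NM and NR entries gave 633 for A498 siRNA #1 and 656 for 786-O siRNA #2. With 1 library left out the ranges were 400 to 674, 505 to 1141, 620 to 807 and 412 to 597, where 674 and 1141 came without A498 NTC 2. Except where a setting itself changes which genes or libraries are used, the cause was not tested.

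NTC replicate numbers are shared by the lines, but nothing says that they mark a common source, and the deviations of same-numbered libraries had a correlation of -0.26 over genes. With the NTC libraries alone, 7916 genes differed between the lines without a replicate block and 7466 with it, against 8796 in all libraries, and 10 of the 10 genes passed in each. A block with the numbers crossed, added after seeing the data, called 8592 genes. Scaling by median ratios moved the median of all genes from -0.02 to 0.0035 on the log2 scale and changed no call among the 10.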

Other observations

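Noncoding entries at the AKR1C cluster followed the same split as the enzymes. ENSG00000226198.1 (chr10:5033750-5034174), inside the span of AKR1C2, was at 38.1 to 47.6 FPKM in A498 and at most 0.190 FPKM in 786-O, and ENSG00000224251.1 (chr10:5038045-5039572) was at 3.40 to 5.08 FPKM and at most 0.120 FPKM. Whether the libraries keep strand is not given in the sources used here, so reads of these entries and of AKR1C2 may not be told apart. These entries were singled out after their values were seen.

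Several genes of the pathway list were at or near 0 in these kidney cancer lines. GPX2, the gastrointestinal glutathione peroxidase, was at most 0.493 FPKM, and ALDH3A1, an aldehyde dehydrogenase often named with AKR1B10 among NRF2 targets, was at most 0.104 FPKM in A498 and 0.00984 FPKM in 786-O. GSTA1, a transferase abundant in normal kidney tubules, was at most 0.0377 FPKM. These 3 were chosen after their values were seen.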
